A study of Homo sapiens with 6 samples.

Results

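The aminoacyl-tRNA synthetases are the enzymes that load each tRNA with its amino acid, and 35 of their genes were followed here, 19 for cytosolic enzymes and 16 for mitochondrial ones. Genes were matched by symbol, older symbols included, and each was represented by its brightest probe set paired with that gene alone. This gave values for 32 members, 17 cytosolic and 15 mitochondrial, among 19775 genes measured. MARS1, QARS1 and TARS2, the methionyl and glutaminyl enzymes of the cytosol and the threonyl enzyme of mitochondria, were not analysed here, because all of their probe sets were listed with a second gene as well.

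Human cells keep separate sets of these enzymes for their cytosolic and mitochondrial ribosomes, nearly all of them encoded in the nucleus by separate genes. The glycyl and lysyl enzymes, GARS1 and KARS1, are each made from a single gene for both places. EPRS1 joins the glutamyl and prolyl activities in a single chain, FARSA and FARSB are the alpha and beta chains of the cytosolic phenylalanyl enzyme, and several cytosolic enzymes sit together in the multisynthetase complex. The enzymes fall into class I and class II, which differ in the fold of the catalytic domain.

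The samples were LNCaP cells, an established line of human prostate cancer cells, in which the long non-coding transcript PCARNEQ was targeted by siRNA, short RNA duplexes that lead to cleavage of a matching transcript. The control cells received siRNA against EGFP, a jellyfish-derived protein with no human counterpart. There were 3 single-colour arrays per group, called siPCARNEQ arrays 1 to 3 and siEGFP arrays 1 to 3. Nothing in the labels ties the 3 arrays of a group to separate cultures. The p-values therefore reflect array-to-array spread, which may be technical, and precision is limited by the small number of arrays. Values are log2 of the deposited probe-set intensity, for which the median of every array was 7.03. Changes are siPCARNEQ minus siEGFP on that scale, and "rose" or "fell" means a limma p-value adjusted over all genes by the Benjamini-Hochberg method that was below 0.05.

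No probe set was listed for PCARNEQ, so its knockdown was not analysed here. Of the 7 luminal prostate markers measured, 6 lay above the array median on all arrays, and 6 of the 7 rose. Their mean level was 11.54 to 11.76 in siPCARNEQ arrays and 10.61 to 10.66 in siEGFP arrays. Of all genes 15.2% rose and 12.3% fell, and of genes with a mean at or above the array median 23.4% rose and 19.4% fell. Of the other markers, 0 of 2 basal, 2 of 5 fibroblast and muscle and 2 of 4 immune and endothelial genes lay above the median on all arrays, and KRT14 (basal), COL1A2 and COL3A1 (fibroblast) and PTPRC (leukocyte) lay below it on every array. The basal pair averaged 6.56 to 6.74 in siPCARNEQ arrays and 6.12 to 6.28 in siEGFP arrays. Of this pair, KRT14 rose (log2 change 1.02, limma adjusted p = 0.000307), and KRT5 had a change of -0.16 that did not pass. ACTA2, on the fibroblast and muscle list, fell (log2 change -0.46, limma adjusted p = 0.00713). The other measured genes of that list and of the immune and endothelial list did not pass. In bulk RNA, fewer cells of a type and less RNA per cell cannot be told apart. RNA quality was read from ACTB, whose 3′ control probe set exceeded its 5′ one by 1.84 (log2) in siPCARNEQ array 1, against 0.63 to 0.78 elsewhere. The part of these differences in the results below was not tested.

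Mitochondrial enzymes had members called in both directions, and cytosolic ones in 1. Among 17 cytosolic enzymes 5 fell, 0 rose and 12 did not pass. Among 15 mitochondrial enzymes 4 rose, 3 fell and 8 did not pass. GARS1 and KARS1, which serve both compartments, were counted as cytosolic only, here and in the medians, and KARS1 is among the 5 that fell. For all genes the shares were 12.3% that fell and 15.2% that rose, 27.5% in all. All 32 members lay above the array median on every array, and when only genes with a mean at or above that median were tested, 19.4% fell and 23.4% rose, 42.8% in all, against the same 12 of 32 members. The share of members called lay near this background and is no result about the enzymes as a set. Their changes reached 0.80 and -0.62 at the extremes. The difference in counts between the compartments was not tested.

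The median change was -0.13 for cytosolic and -0.16 for mitochondrial enzymes, against -0.01 for all genes, so the medians of the 2 compartments hardly differed. Between arrays of the same number, the cytosolic median was -0.22, -0.10 and -0.03, and the mitochondrial median was -0.09, -0.07 and -0.09. The mitochondrial median arose from members on both sides of 0, between -0.61 and 0.80, whereas the highest cytosolic value was 0.11. The arrays of the groups did not overlap for 9 cytosolic and 11 mitochondrial members, or 20 of 32, where 44% of all genes did not overlap (22.3% higher and 21.7% lower). All 32 members lay above the array median, and no such share was computed for genes above it. The count is therefore not read as a result about the enzymes.

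**Figure D1:**
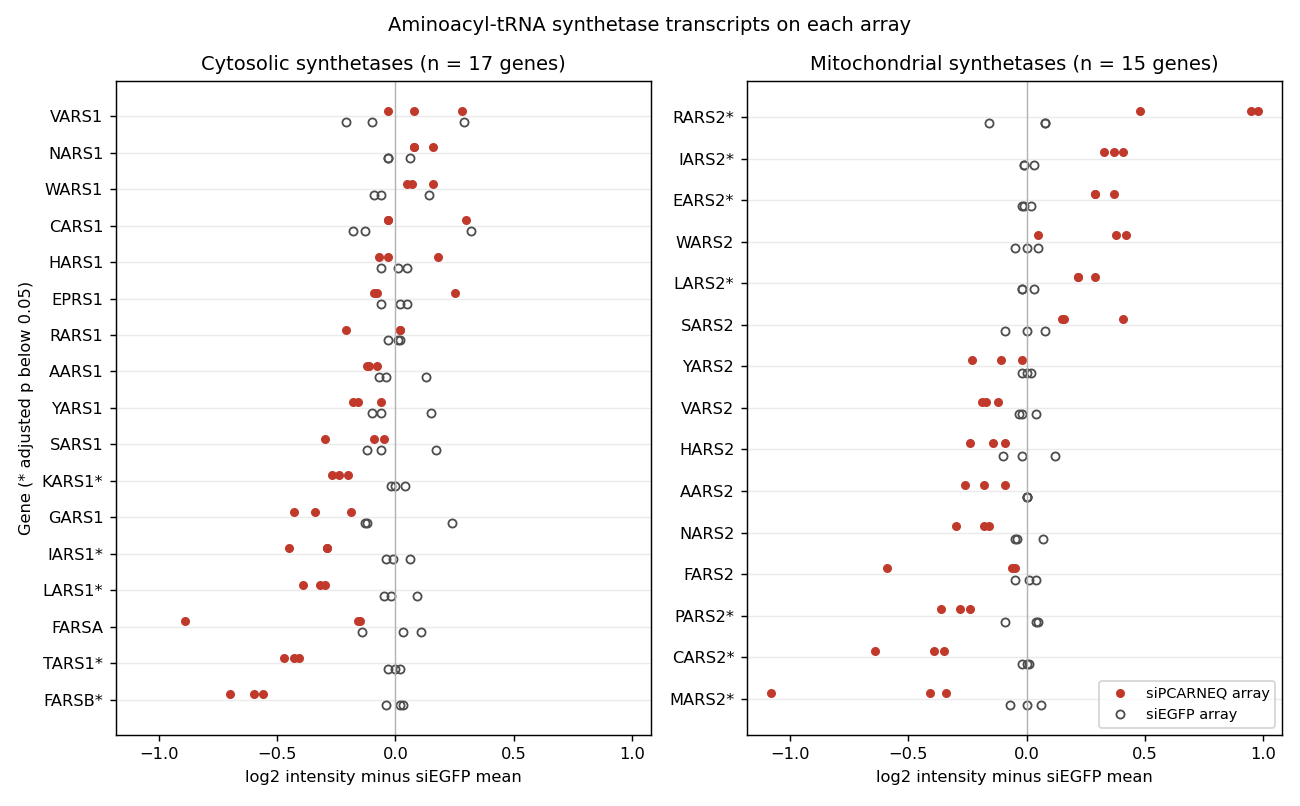
Log2 intensity of each synthetase gene on each array (x axis, minus the siEGFP mean of that gene), with siPCARNEQ arrays as filled red points above siEGFP arrays as open points, and genes ordered by their change. Asterisks mark the 5 cytosolic and 7 mitochondrial genes that passed. The right panel has called genes at both ends, and the left panel has them only at the lower end.

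FARSB, the beta chain of the cytosolic phenylalanyl enzyme, had the deepest fall among cytosolic members. It lay at 11.66, 11.76 and 11.80 in siPCARNEQ arrays and at 12.38, 12.32 and 12.39 in siEGFP arrays. The groups were far apart for their spread, with a fold of 0.649 (log2 change -0.62, SE 0.07, limma adjusted p = 0.000749). FARSA, the alpha chain of the same enzyme, lay at 10.72, 11.46 and 11.45 in siPCARNEQ arrays and 11.47, 11.64 and 11.72 in siEGFP arrays. The siPCARNEQ array 1 was the low one, and the change of -0.40 (SE 0.20) did not pass (limma adjusted p = 0.192). In arrays 2 and 3 alone FARSA fell by 0.22 (limma adjusted p = 0.0195), where 41.6% of all genes passed. The other probe set of FARSA fell by 0.30 over all 6 arrays. Among single probe sets, 8.61% fell and 9.92% rose, 18.5% in all. When probe sets that may detect more than 1 transcript were set aside, FARSB was read from a dim probe set and had a change of -0.43 that did not pass (limma adjusted p = 0.174).

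TARS1, the cytosolic threonyl enzyme, lay at 12.52, 12.48 and 12.54 in siPCARNEQ arrays and at 12.97, 12.95 and 12.92 in siEGFP arrays. Its arrays were tight in both groups, with a change of -0.43 (SE 0.06, limma adjusted p = 0.00212). A second, dim TARS1 probe set with a mean of 6.63, not above the array median on every array, rose by 0.52, and TARS1 was the only member with probe sets called in opposite directions. Averaged over both, TARS1 had a change of 0.04 (limma adjusted p = 0.61).

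Of the 7 members of the multisynthetase complex, 5 were measured and 3 of them fell. IARS1, the isoleucyl enzyme, lay at 13.00, 13.16 and 13.16 in siPCARNEQ arrays and 13.51, 13.41 and 13.44 in siEGFP arrays. LARS1, the leucyl enzyme, lay at 11.90, 11.99 and 11.97 in siPCARNEQ arrays and 12.38, 12.24 and 12.27 in siEGFP arrays. Both fell by 0.34 (SE 0.07 each), with limma adjusted p of 0.0125 for IARS1 and 0.0106 for LARS1, and with no overlap between the groups. Of the other 3 LARS1 probe sets, a pair fell as well, by 0.56 and 0.51, and 1 had a change of 0.12 (SE 0.16).

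KARS1, the lysyl enzyme of both compartments, lay at 13.98, 13.94 and 13.91 in siPCARNEQ arrays and 14.16, 14.22 and 14.18 in siEGFP arrays. The fall was small but even, 0.24 (SE 0.06, limma adjusted p = 0.0267), and its second probe set fell by 0.47. KARS1 did not pass without siPCARNEQ array 2 or 3 or siEGFP array 2 or 3 (limma adjusted p = 0.0835, 0.0965, 0.108 and 0.0906). The bifunctional EPRS1 and the arginyl RARS1 had changes of 0.02 (SE 0.11) and -0.06 (SE 0.08), with overlapping groups. AIMP1, a scaffold protein of the complex, had a change of -0.39 (SE 0.13, limma adjusted p = 0.0573), and it passed with the replicate number as a block (adjusted p = 0.034). Averaged over all of its probe sets, AIMP1 had a change of -0.07 (limma adjusted p = 0.45). Outside the complex, 2 of 12 cytosolic members fell. The shares that fell were 12.3% of all genes and 19.4% of genes with a mean at or above the array median.

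GARS1, the glycyl enzyme of both compartments, lay at 12.94, 12.70 and 12.79 in siPCARNEQ arrays and at 13.37, 13.01 and 13.00 in siEGFP arrays. Array 1 was the highest of its group on both sides, and the groups did not overlap. The change of -0.31 (SE 0.12) did not pass (limma adjusted p = 0.0991), and passed with the replicate number as a block (adjusted p = 0.0193). NARS1, the asparaginyl enzyme, lay at 13.85, 13.77 and 13.77 in siPCARNEQ arrays and 13.75, 13.66 and 13.66 in siEGFP arrays, a change of 0.10 (SE 0.07) that did not pass.

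The other cytosolic members had changes between -0.14 and 0.11. These were SARS1 (-0.14), YARS1 (-0.13), AARS1 (-0.11), HARS1 (0.03), CARS1 (0.07), WARS1 (0.09) and VARS1 (0.11), the seryl, tyrosyl, alanyl, histidyl, cysteinyl, tryptophanyl and valyl enzymes. Their limma adjusted p ran from 0.33 for YARS1 to 0.866 for HARS1.

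Among mitochondrial enzymes, RARS2, which charges arginine, had the largest change of all members. It lay at 9.73, 10.23 and 10.20 in siPCARNEQ arrays and at 9.09, 9.33 and 9.33 in siEGFP arrays. Array 1 was the lowest of its group on both sides and the groups did not overlap, with a fold of 1.74 (log2 change 0.80, SE 0.15, limma adjusted p = 0.00626). A second RARS2 probe set above the array median had a change of 0.44 (SE 0.28) that did not pass. With all 6 RARS2 probe sets averaged, 4 of them not above the median on every array, the change was 0.27 (limma adjusted p = 0.0957).

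IARS2, the mitochondrial isoleucyl enzyme, lay at 12.87, 12.83 and 12.79 in siPCARNEQ arrays and 12.49, 12.45 and 12.45 in siEGFP arrays. Every siPCARNEQ array was above every siEGFP array, and IARS2 rose by 0.37 (SE 0.06, limma adjusted p = 0.00475). EARS2, the mitochondrial glutamyl enzyme, lay at 11.31, 11.23 and 11.23 in siPCARNEQ arrays and 10.92, 10.96 and 10.93 in siEGFP arrays, and rose by 0.31 (SE 0.06, limma adjusted p = 0.00939). A second EARS2 probe set rose by 0.26. LARS2, the mitochondrial leucyl enzyme, lay at 11.53, 11.46 and 11.46 in siPCARNEQ arrays and 11.27, 11.22 and 11.22 in siEGFP arrays. LARS2 rose by 0.25 (SE 0.06, limma adjusted p = 0.0263), with a change of 0.16 in its other probe set that did not pass. It did not pass without siPCARNEQ array 2 or 3 or siEGFP array 2 or 3 (limma adjusted p = 0.0675, 0.0701, 0.1 and 0.101).

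CARS2, the mitochondrial cysteinyl enzyme, lay at 9.96, 10.25 and 10.21 in siPCARNEQ arrays and at 10.60, 10.58 and 10.61 in siEGFP arrays. It fell by 0.46 (SE 0.09, limma adjusted p = 0.00849), with siPCARNEQ array 1 the lowest and no overlap. The other 4 CARS2 probe sets were dimmer, with means of 3.72 to 7.28 and changes of -0.09 to 0.23 that did not pass. Averaged over all of its probe sets, CARS2 had a change of -0.04 (limma adjusted p = 0.693).

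MARS2, the mitochondrial methionyl enzyme, lay at 9.38, 10.05 and 10.12 in siPCARNEQ arrays and 10.39, 10.46 and 10.52 in siEGFP arrays. The fall of 0.61 (SE 0.19, limma adjusted p = 0.048) was close to the threshold, and siPCARNEQ array 1, the array with the high ACTB difference, stood well below the other arrays. Between arrays of the same number the change was -1.02 for number 1 and -0.41 and -0.40 for numbers 2 and 3. Without siPCARNEQ array 1, MARS2 fell by 0.38 (limma adjusted p = 0.00673). PARS2, the mitochondrial prolyl enzyme, lay at 8.81, 8.89 and 8.93 in siPCARNEQ arrays and 9.21, 9.08 and 9.22 in siEGFP arrays, and fell by 0.29 (SE 0.07, limma adjusted p = 0.0245). MARS2 did not pass without siPCARNEQ array 2 or without any siEGFP array (limma adjusted p = 0.0522 to 0.14). PARS2 did not pass without siPCARNEQ array 2 or 3 or siEGFP array 1 or 3 (limma adjusted p = 0.0505 to 0.0994).

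NARS2, the mitochondrial asparaginyl enzyme, lay at 10.95, 11.07 and 11.09 in siPCARNEQ arrays and 11.32, 11.20 and 11.21 in siEGFP arrays. The groups did not overlap, but the change of -0.21 (SE 0.07) did not pass (limma adjusted p = 0.0774). FARS2, the phenylalanyl enzyme, had a change of -0.23 (SE 0.15), in which siPCARNEQ array 1 at 9.32 stood apart from the other 5 arrays at 9.85 to 9.95. AARS2 (-0.18), HARS2 (-0.16), VARS2 (-0.16) and YARS2 (-0.12), the alanyl, histidyl, valyl and tyrosyl enzymes, did not pass. SARS2 and WARS2, the seryl and tryptophanyl enzymes, had changes of 0.24 (SE 0.09) and 0.28 (SE 0.11) with limma adjusted p of 0.1 and 0.101, and both passed with the replicate number as a block, which made 6 mitochondrial members that rose. Of all genes, 19.2% rose and 15.3% fell with the block, 34.6% in all.

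The 4 mitochondrial members that rose were all class I enzymes. Of 9 class I mitochondrial enzymes 4 rose and 2 fell, with a median change of 0.25, and of 6 class II ones 0 rose and 1 fell, with a median of -0.19 and 1 positive value, that of SARS2. Among cytosolic members, 2 of 7 class I and 3 of 9 class II enzymes fell. With the replicate number as a block, SARS2 of class II and WARS2 of class I rose as well (limma adjusted p = 0.0371 and 0.0468). Of genes with a mean at or above the array median, 23.4% rose and 19.4% fell in the main comparison. These counts are a description of few genes.

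Of the 12 members that passed, 8 passed with each array left out in turn, namely FARSB, TARS1, IARS1, LARS1, RARS2, IARS2, EARS2 and CARS2. Of all genes, 31.9%, 22.7% and 21.6% passed without siPCARNEQ array 1, 2 or 3, and 24%, 18.7% and 18.8% without siEGFP array 1, 2 or 3. With all probe sets of a gene averaged 26.4% passed, without probe sets that may detect more than 1 transcript 25.6%, with further quantile normalization 27.6%, and with cyclic loess 27.5%. All 12 passed with the replicate number as a block, a pairing that was assumed. When arrays 2 and 3 of each group, which resemble each other, were averaged as 1 replicate, FARSB was the 1 member that passed (limma adjusted p = 0.0239), where 11.3% of all genes passed. Among the other genes named below, GCN1, EIF2AK4, ASNS, EIF5A, MTRFR, ORC3, TERF2IP and MRPS12 did not pass in that setting either (limma adjusted p = 0.0613 to 0.199).

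The 2 compartments were also compared amino acid by amino acid, as the log2 difference between the cytosolic and the mitochondrial transcript within each array. Probe sets differ in brightness, so that difference itself is not a ratio of RNA amounts, and only its change between groups was read. In 10 of 14 measured pairs the difference did not overlap between the groups, lower in siPCARNEQ arrays in 6 pairs and higher in 4. EPRS1 entered both with EARS2 and with PARS2, so the pairs are not all separate, and FARS2 was paired with FARSA and not with FARSB. The 44% given above is the share for single genes, and no such share was computed for differences between genes. Each of these 10 reached a 2-sided exact permutation p of 0.1, the smallest that 3 against 3 arrays allow, and 0.14 adjusted over the 14 pairs, so no pair could pass 0.05.

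For isoleucine and leucine the cytosolic gene fell and the mitochondrial gene rose. The IARS1 minus IARS2 difference was 0.13 to 0.36 in siPCARNEQ arrays and 0.96 to 1.01 in siEGFP arrays, a change of -0.71. The LARS1 minus LARS2 difference was 0.37 to 0.53 in siPCARNEQ arrays and 1.01 to 1.11 in siEGFP arrays, a change of -0.59. The widest change belonged to arginine, where the RARS1 minus RARS2 difference was 2.21 to 2.48 in siPCARNEQ arrays and 3.06 to 3.34 in siEGFP arrays, a change of -0.86 that came with RARS1 near 0.

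The largest change in the other direction was that of cysteine. The CARS1 minus CARS2 difference was 1.84 to 2.45 in siPCARNEQ arrays and 1.36 to 1.84 in siEGFP arrays, so the groups met at the printed digits, with a change of 0.53. With all probe sets averaged, CARS1 had a change of -0.03 and CARS2 of -0.04. For EPRS1 the change of the difference was -0.29 to EARS2 and 0.31 to PARS2, with EPRS1 itself at 0.02. The pairs for alanine, valine, tryptophan and tyrosine overlapped between the groups.

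**Figure D2:**
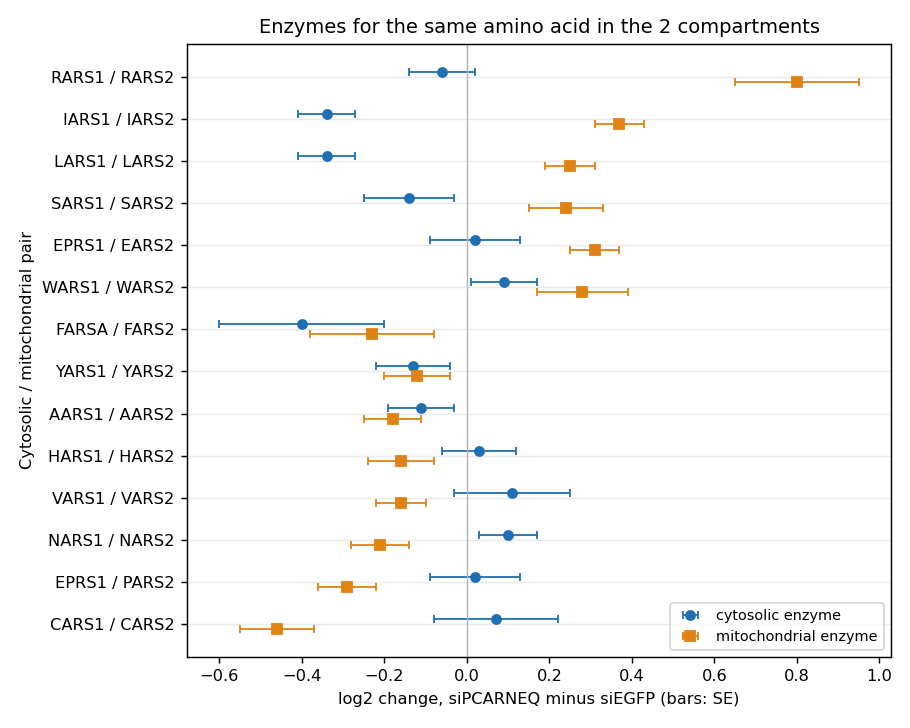
Log2 change, siPCARNEQ minus siEGFP, of the cytosolic (blue circles) and mitochondrial (orange squares) enzyme for the same amino acid in 14 pairs, with bars for the SE from limma. EPRS1 appears with both of its mitochondrial partners. RARS2, IARS2 and LARS2 lie to the right of their cytosolic partners, and CARS2 and PARS2 to the left.

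Many cytosolic synthetase genes are known targets of ATF4, a transcription factor of the amino acid response, which binds with C/EBP partners at an element close to the letters TGATGNAAN. These letters were searched on both strands of 300-base windows from 250 bases before to 50 bases after the start of each gene, taken from RefSeq (GRCh38.p14), which held 30 of the 35 members. LARS1, VARS1, YARS1, AARS2 and VARS2 had no window there. The letters were found for 7 of 16 cytosolic genes and 1 of 14 mitochondrial genes, where 4.45% of 27303 genes in the table held them. The matches are printed because they are a sequence feature that the compartments do not share equally, each 5′ to 3′ in the direction that reads TGATGNAAN, with the matched letters in capitals and 10 bases on either side.
AARS1, chr16:70289676-70289704, plus strand: ctaacttggcTGATGCAACtgcgagaaaa
CARS1, chr11:3057408-3057436, plus strand: tcctagaatcTGATGCAACcgccgccccg
GARS1, chr7:30594834-30594862, minus strand: gctcggagcaTGATGAAATcgccgcgtaa
IARS1, chr9:92293693-92293721, plus strand: cgcacggaggTGATGCAACgcgctgaaaa
MARS1, chr12:57488053-57488081, minus strand: aatccctcgcTGATGCAACcggaaccggc
NARS1, chr18:57621804-57621832, minus strand: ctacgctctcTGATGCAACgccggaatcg
TARS1, chr5:33440956-33440984, minus strand: ctggaccagcTGATGCAATcgaaaggcgc
YARS2, chr12:32756076-32756104, minus strand: tccacactgcTGATGGAAAaattaagttt

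Of the 6 measured cytosolic genes with the letters, IARS1 and TARS1 fell and AARS1, CARS1, GARS1 and NARS1 did not pass, with a median change of -0.21. Of the 8 measured cytosolic genes whose windows lacked them, FARSB and KARS1 fell, with a median of -0.10. LARS1, which fell, had no window and is in neither group, as are VARS1 and YARS1. Of all genes 12.3% fell, and of genes with a mean at or above the array median 19.4% fell. The difference between the groups with and without the letters was not tested. A match is a description and not a site of binding. The E-box letters CACGTG, bound by MYC among other factors, were in the windows of 1 of 16 cytosolic genes (IARS1) and 3 of 14 mitochondrial genes (CARS2, EARS2 and MARS2), against 8.78% of all genes. The 10-letter palindrome of NRF1, a factor known for mitochondrial genes, was in the window of MARS2 alone among the 30, against 1.52% of all genes.

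ATF4 itself lay at 13.00, 12.75 and 12.73 in siPCARNEQ arrays and 13.12, 12.75 and 12.77 in siEGFP arrays, with overlapping groups and a change of -0.05 (SE 0.12). Of 18 amino acid response genes, 2 rose, 3 fell and 13 did not pass, with a median of -0.03. All 18 lay above the array median on every array. Of genes with a mean at or above that median 23.4% rose and 19.4% fell, and of all genes 15.2% and 12.3%. DDIT3, a stress-induced transcription factor, rose by 0.66 (limma adjusted p = 0.000686). SLC7A11, the cystine transporter, fell by 0.62 (adjusted p = 0.00121), and GCN1, which helps the kinase GCN2 to sense uncharged tRNA, fell by 0.32 (adjusted p = 0.0115). GCN1 did not pass without siEGFP array 3 (limma adjusted p = 0.0502).

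EIF2AK4, the gene of GCN2 itself, lay at 12.74, 12.27 and 12.22 in siPCARNEQ arrays and 11.73, 11.81 and 11.72 in siEGFP arrays. It rose by 0.65 (SE 0.14, limma adjusted p = 0.0118), opposite in direction to GCN1, with siPCARNEQ array 1 the highest. ASNS, asparagine synthetase, lay at 11.96, 11.94 and 11.99 in siPCARNEQ arrays and 12.93, 12.30 and 12.35 in siEGFP arrays, and fell by 0.56 (SE 0.16, limma adjusted p = 0.0383). The siEGFP array 1 was the high one, and without it ASNS fell by 0.36 (limma adjusted p = 0.0138). ASNS did not pass with any siPCARNEQ array or siEGFP array 3 left out (limma adjusted p = 0.055 to 0.0939), and its change was -0.08 (adjusted p = 0.683) when probe sets that may detect more than 1 transcript were set aside. ASNS also did not pass with all of its probe sets averaged (-0.32, limma adjusted p = 0.0538).

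Several synthetase genes start back to back with another gene on the opposite strand, less than 1000 bases away. Such neighbours were looked up in RefSeq after the values of the members had been seen, and 8 members had a protein-coding one. The stretches between the starts are printed for the pairs with changes on opposite sides of 0, of which SARS2, HARS1 and HARS2 did not pass, in lower case, 5′ to 3′ on the strand of the synthetase named first.
RARS2 and ORC3, chr6:87589988-87590134, minus strand: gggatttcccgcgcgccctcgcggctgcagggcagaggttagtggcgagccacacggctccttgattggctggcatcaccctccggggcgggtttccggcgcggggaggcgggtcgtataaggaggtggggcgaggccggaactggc
KARS1 and TERF2IP, chr16:75647666-75647772, minus strand: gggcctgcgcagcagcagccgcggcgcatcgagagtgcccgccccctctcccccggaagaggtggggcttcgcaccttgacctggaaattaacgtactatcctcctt
SARS2 and MRPS12, chr19:38930764-38930943, minus strand: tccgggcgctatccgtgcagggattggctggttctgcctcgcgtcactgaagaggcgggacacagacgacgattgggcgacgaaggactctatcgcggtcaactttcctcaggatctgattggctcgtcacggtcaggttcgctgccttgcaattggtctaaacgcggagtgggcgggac
HARS2 and HARS1, chr5:140691371-140691454, plus strand: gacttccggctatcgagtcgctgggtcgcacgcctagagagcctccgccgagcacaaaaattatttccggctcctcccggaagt

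ORC3, a subunit of the origin recognition complex that starts 148 bases from RARS2, lay at 7.90, 8.44 and 8.31 in siPCARNEQ arrays and 8.70, 9.01 and 9.02 in siEGFP arrays. It fell by 0.69 (SE 0.16, limma adjusted p = 0.0147) where RARS2 rose by 0.80. ORC3 did not pass without siEGFP array 2 or 3 (limma adjusted p = 0.0621 and 0.0614).

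TERF2IP, a telomere protein whose start lies 108 bases from that of KARS1, rose by 0.27 (SE 0.08, limma adjusted p = 0.047) where KARS1 fell by 0.24. TERF2IP did not pass with any array but siPCARNEQ array 1 left out (limma adjusted p = 0.0583 to 0.146), nor with cyclic loess (0.0613). MRPS12, a mitochondrial ribosomal protein that starts 181 bases from SARS2, lay at 10.80, 11.59 and 11.67 in siPCARNEQ arrays and 12.16, 12.28 and 12.32 in siEGFP arrays, and fell by 0.90 (SE 0.22, limma adjusted p = 0.0193). SARS2 had a change of 0.24 that did not pass. MRPS12 did not pass without siEGFP array 2 or 3 (limma adjusted p = 0.0681 and 0.0704).

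UBFD1 lies next to EARS2 and had a change of 0.37 (SE 0.12, limma adjusted p = 0.067), on the same side as EARS2, and it passed with the replicate number as a block (adjusted p = 0.00646). Averaged over all of its probe sets, UBFD1 had a change of 0.12 (limma adjusted p = 0.43). LYRM4, an iron-sulfur cluster protein next to FARS2, had a change of -0.25, and WDR25 next to WARS1 had 0.13, and neither passed. HARS1 and HARS2 start 85 bases apart, and their changes were 0.03 and -0.16.

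**Figure D3:**
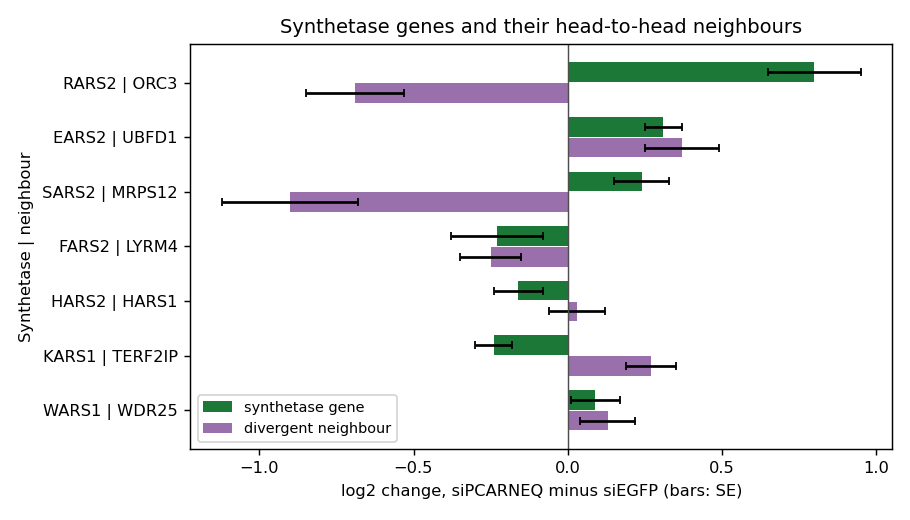
Log2 change, siPCARNEQ minus siEGFP, of synthetase genes (green) and of the gene that starts back to back with each (purple; HARS1 for HARS2), with bars for the SE from limma. ORC3, MRPS12 and TERF2IP lie on the other side of 0 from RARS2, SARS2 and KARS1.

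The genes that make, load and use tRNAs were described from the lists given with the methods. Among 22 measured genes of tRNA maturation and export, 12 fell, 1 rose and 9 did not pass, with a median change of -0.30. Of all genes 12.3% fell and 15.2% rose. On every array 20 of the 22 lay above the array median, and of genes with a mean at or above that median 19.4% fell and 23.4% rose. The same shares stand beside the lists that follow, and the difference was not tested. TSEN15, a subunit of the tRNA splicing endonuclease, lay at 10.64, 10.63 and 10.63 in siPCARNEQ arrays and 11.80, 11.65 and 11.68 in siEGFP arrays and fell by 1.08 (limma adjusted p = 9.72e-05). POP1 and RPP40, subunits of ribonuclease P, which trims the 5′ end of tRNA precursors, fell by 1.0 and 0.80 (limma adjusted p = 0.00046 and 0.000328).

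Of 12 measured genes on the list of mitochondrial aminoacyl-tRNA use, 6 fell, 1 rose and 5 did not pass, with a median of -0.38. All 12 lay above the array median on every array. Not all of them use charged tRNA, as the list also holds release factors. MTRF1L, a release factor of mitochondrial ribosomes, lay at 9.60, 9.41 and 9.42 in siPCARNEQ arrays and 11.05, 10.90 and 10.90 in siEGFP arrays and fell by 1.47 (limma adjusted p = 6.67e-05). When probe sets that may detect more than 1 transcript were set aside, MTRF1L had a change of 0.10 (limma adjusted p = 0.515) in another probe set. MTIF2, a mitochondrial initiation factor, fell by 0.51 (adjusted p = 0.00254). GFM1, a mitochondrial elongation factor, lay at 12.84, 12.90 and 12.82 in siPCARNEQ arrays and 12.15, 12.25 and 12.17 in siEGFP arrays, and rose by 0.66 (limma adjusted p = 0.000495). Averaged over all of its probe sets, GFM1 rose by 0.34 (limma adjusted p = 0.0217). The difference between this list and the synthetases was not tested.

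Cytosolic elongation factors, some of which carry charged tRNA to the ribosome or move it there, had 1 of 5 measured genes lower and 0 higher, with a median of -0.02. The member that fell was EIF5A (-0.84, SE 0.21, limma adjusted p = 0.0239), in which siPCARNEQ array 1 at 12.11 stood below arrays 2 and 3 at 12.90 and 12.96, against 13.44 to 13.57 in siEGFP arrays. EIF5A did not pass when any siEGFP array was left out (limma adjusted p = 0.0687 to 0.0784), and averaged over all of its probe sets it fell by 0.52 (0.00295). EEF2 and EEF1A2 had changes of 0.10 and -0.09.

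Of 4 measured genes of proofreading and peptidyl-tRNA hydrolysis, DTD2, which removes wrongly attached amino acids from tRNA, fell and MTRFR, a mitochondrial ribosome rescue factor, rose. DTD2 lay at 8.77, 9.17 and 9.09 in siPCARNEQ arrays and 11.87, 11.81 and 11.78 in siEGFP arrays, a change of -2.81 (SE 0.11, limma adjusted p = 2.82e-05). That was beyond the change of any synthetase measured here. MTRFR rose by 0.36 (SE 0.11, limma adjusted p = 0.0486), and it did not pass without siPCARNEQ array 2 or without any siEGFP array (adjusted p = 0.0752 to 0.139), nor with further quantile normalization (0.0531) or cyclic loess (0.0593). PTRHD1 had a change of -0.15 that did not pass.

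**Figure D4:**
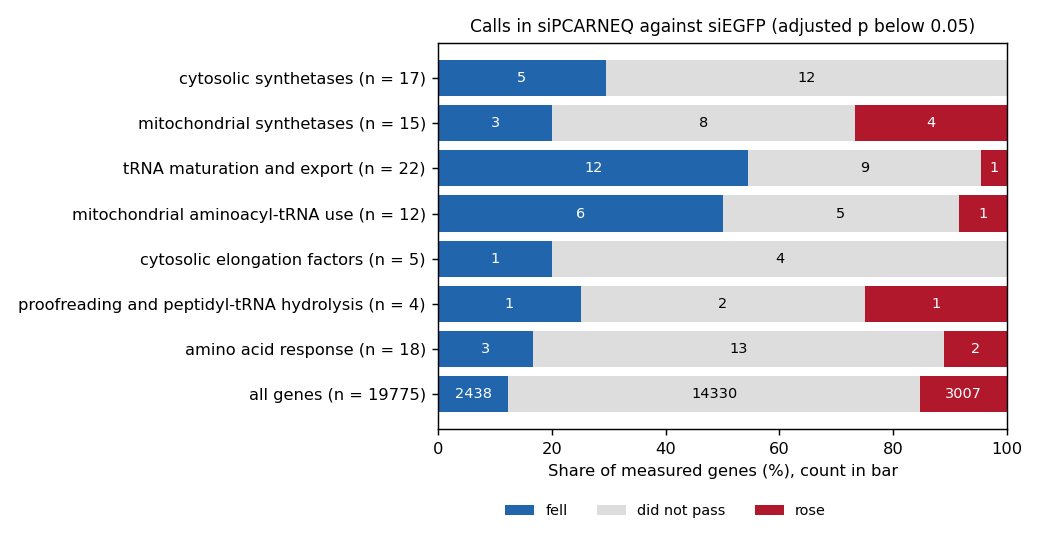
Share of measured genes in each list that fell (blue), did not pass (grey) or rose (red) in siPCARNEQ against siEGFP, with the count printed in each bar. The bar for all genes at the foot gives the background, 12.3% that fell and 15.2% that rose.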

How the data were processed

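Total RNA of LNCaP cells was labelled as biotinylated cRNA and measured on 6 Affymetrix arrays, per the labels. The deposited table holds a linear intensity per probe set, made with RMA per the submitters' processing notes. Sorted and in log2, the arrays differed nowhere by more than 0.0049, so the authors' step had already brought them to 1 distribution and differences in total RNA are out of reach. The RMA software is not given in the sources used here. Of 54675 probe sets, 62 controls were left out, and 41091 of the rest were paired with 1 gene, 1801 with several and 11721 with none in the platform annotation. Log2 was taken with no pseudocount and no filter on low values.

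The main comparison used limma 3.58.1 (lmFit, eBayes) under R 4.3.3, without covariates, over 19775 genes, 2-sided, with Benjamini-Hochberg adjustment. Changes of single probe sets were fitted over 54613 probe sets and adjusted over those. Pairs were compared with exact permutation tests in Python 3.11.15, and figures were drawn with matplotlib 3.10.9. The fit was tested on simulated data with independent noise on each array and far fewer changed genes than here. Such data lack the likeness of arrays 2 and 3, so the test cannot vouch for the calls. Sequences came from RefSeq, GRCh38.p14. Both groups carry replicate numbers 1 to 3, and deviations from the group means correlated at 0.47, 0.30 and 0.34 for arrays of the same number. Each exceeds 0.1, and on this basis alone the numbers were taken to pair the arrays in the block setting, as no label names a shared batch. These values were not set beside those of arrays with different numbers, and arrays 2 and 3 resemble each other within each group. They therefore cannot show that arrays of the same number belong together, and results with the block rest on an assumed pairing. The main comparison and the permutation tests did not pair the arrays.

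The members and lists, which come from general knowledge, were chosen with earlier results of these data known. They covered the multisynthetase scaffold, proofreading and peptidyl-tRNA hydrolysis, tRNA maturation and export, cytosolic elongation factors, mitochondrial aminoacyl-tRNA use, the amino acid response and cell type markers. Values in every array were to be given for the 8 cytosolic and 8 mitochondrial members with the smallest p, GARS1, KARS1 and their partners, and up to 3 genes with the smallest p were to be named per list. ATF4, EIF2AK4, ASNS and the head-to-head neighbours were named outside this rule after their values were seen.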

Additional observations from a re-analysis of the deposited data

How the results depend on the processing

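In all, 14 other settings were tried. The replicate block lost no call among the 12 members that passed and gave 6 cytosolic members that fell, 6 mitochondrial that rose and 3 that fell. With single arrays left out, 0 cytosolic members rose and 4 to 5 fell, 3 to 5 mitochondrial members rose and 1 to 4 fell, the cytosolic median was -0.17 to -0.05 (-0.05 without siEGFP array 1), and the mitochondrial median was -0.17 to -0.12. With arrays 2 and 3 averaged, 1 cytosolic member fell, and 0 mitochondrial members rose and 0 fell with limma. Arrays 2 and 3 alone gave 1 cytosolic rise (WARS1) and medians of -0.06 (cytosolic) and -0.07 (mitochondrial), and cyclic loess gave -0.16 and -0.20. With all probe sets of a gene averaged, 1 mitochondrial member fell (median -0.11, cytosolic median -0.05), and without probe sets that may detect more than 1 transcript 3 cytosolic members fell, FARSB not among them (-0.43, limma adjusted p = 0.174). The cause was not tested.

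Signs turned for TARS1 (0.04, limma adjusted p = 0.61), CARS1 (-0.03), EPRS1 (-0.04), WARS1 (-0.0031) and YARS1 (0.03) with probe sets averaged, for YARS1 (0.19) and MTRF1L (0.10) without multi-transcript probe sets, for RARS1 (0.02), EPRS1 (-0.06), HARS1 (-0.02) and SARS1 (0.02) in arrays 2 and 3 alone, and for EPRS1 (-0.00041) and HARS1 (-0.01) with cyclic loess. With single arrays left out, RARS1 ran from -0.10 to 0.02, CARS1 from -0.03 to 0.23, EPRS1 from -0.09 to 0.08, HARS1 from -0.05 to 0.07 and ATF4 from -0.14 to 0.06. Of these genes, TARS1 and MTRF1L had passed before. MARS2 did not pass with further quantile normalization, cyclic loess or all probe sets averaged (limma adjusted p = 0.0514, 0.0505 and 0.0504).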
